A study of Homo sapiens with 18 samples.

Results

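HAIR-M cells, a human cell line of marginal zone lymphoma, were treated with the PI3K inhibitor copanlisib at 5 nM, and the RNA of cells treated for 8 h was compared with that of cells treated for 4 h. The comparison rests on 6 of the 18 sequenced libraries, 3 at each time, chosen by the treatment and time in the labels. Vehicle cells given DMSO were sequenced at the same times, also with 3 libraries per group, and a 12 h time exists for both arms. All groups are the same line without a genetic change, and the labels do not say whether the 3 libraries of a group came from separate cultures, so the spread between them may be technical. A single line was used, so the values describe HAIR-M and no other lymphoma.

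Copanlisib blocks class I PI3K, the lipid kinases that B cell receptor and cytokine signals use to activate AKT. AKT in turn keeps FOXO transcription factors out of the nucleus and feeds mTORC1, which supports protein synthesis, nucleotide synthesis, glycolysis and the translation of HIF-1 alpha and MYC. Signals through PI3K also meet the ERK and NF-kB pathways that drive early response genes in activated B cells. A comparison between 8 h and 4 h of drug follows how the transcripts moved between these times, after whatever had occurred in the first hours.

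The 3 libraries at 4 h were not alike. Gene reads were 20859455, 20667639 and 18724224 at 4 h and 20176516, 23042286 and 25566761 at 8 h. Unmapped reads made up 8.73% and 5.22% in replicates 1 and 2 at 4 h, 2.34% in replicate 3, and 1.92% to 2.82% at 8 h. Over genes with at least 20 reads, the chi-square per gene, where sampling noise alone gives 1, was 2.43 between replicates 1 and 2 at 4 h, and 19.9 and 15.8 between each of them and replicate 3. At 8 h the 3 pairs lay between 1.72 and 1.86. The departure followed GC content: with all libraries, the median log2 fold change (8 h over 4 h) went from -0.17 to 0.22 between the lowest and the highest of 5 equal GC classes of genes. Against replicate 3 alone the 5 medians lay between -0.02 and 0.04. Changes are therefore given with all 3 libraries at 4 h and against replicate 3 alone, and a gene is said to hold against replicate 3 where both fits called it in the same direction. In the fit with replicate 3 alone the spread comes from the 8 h libraries only, so its p-values take no account of variation at 4 h. Single genes are given with its fold changes, and the adjusted p marked "with replicate 3" for a difference between the arms has the same limit for that group.

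**Figure D1:**
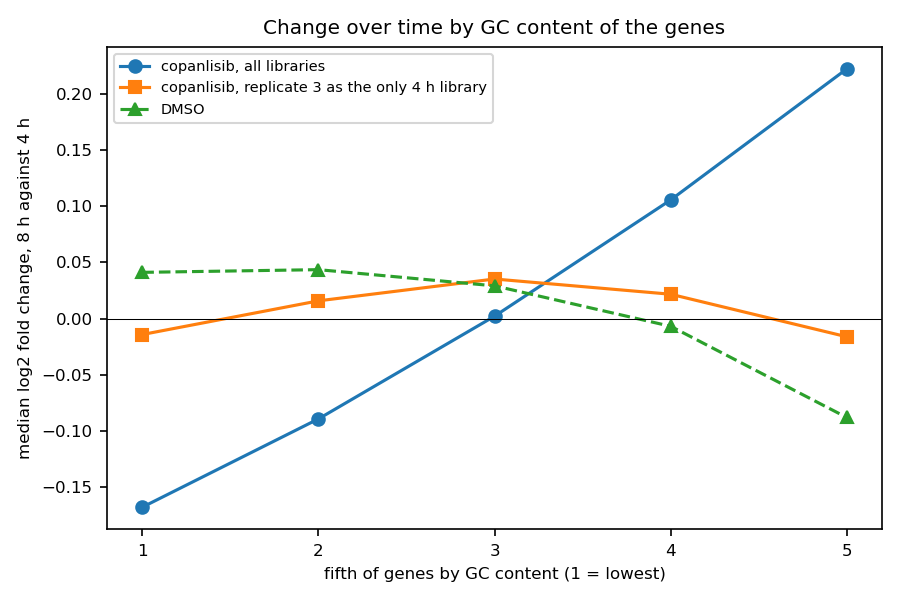
Median log2 fold change from 4 h to 8 h (vertical axis) in 5 equal classes of the tested genes by GC content (horizontal axis, 1 is the lowest), for copanlisib with all libraries, for copanlisib with replicate 3 as the only 4 h library, and for DMSO. The medians with all libraries climb from -0.17 to 0.22, while those against replicate 3 stay between -0.02 and 0.04 and those in DMSO go from 0.04 to -0.09.

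Of 15572 genes tested, 4438 (28.5%) changed between 4 h and 8 h of copanlisib at an adjusted p under 0.05 (edgeR quasi-likelihood test, Benjamini-Hochberg): 2039 (13.1%) were higher and 2399 (15.4%) lower at 8 h. Against replicate 3 alone 4350 (27.9%) were called, and 2802 held in both fits, 1190 (7.64%) higher and 1612 (10.4%) lower. Changes were mostly small: 183 genes (1.18%) passed with at least a 2-fold change, 127 (0.816%) of them higher and 56 (0.360%) lower. In 6 genes (0.0385%) the call with all libraries had the opposite sign against replicate 3. All 3 libraries at 8 h lay above all 3 at 4 h in 3326 genes (21.4%) and below them in 3505 (22.5%). Genes named as the largest changes were required to be without overlap, so their separation adds no support. Counts of called list members below are to be set beside the 13.1% higher and 15.4% lower of all genes. The count of 4438 depended on single libraries. It was 3046, 1992 and 8339 without 4 h replicate 1, 2 or 3, and 1768, 2020 and 2190 without 8 h replicate 1, 2 or 3.

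Many of these changes also occurred without the drug. In DMSO, 4205 of 16018 genes tested (26.3%) changed from 4 h to 8 h, 1979 (12.4%) higher and 2226 (13.9%) lower. Of the 2802 genes that held in both copanlisib fits, 1507 (53.8%) were called in the same direction in DMSO, 17 (0.607%) in the opposite one, and 1278 (45.6%) were not called there. Across 15562 genes, Pearson's r between the time changes of the arms was 0.46, and 0.52 against replicate 3, as a description over genes that share libraries and scaling. A test of the difference itself, copanlisib change minus DMSO change, called 1746 genes (10.9%) with all libraries, 881 (5.50%) of them positive and 865 (5.40%) negative. It called 449 (2.80%) with replicate 3 as the only copanlisib library at 4 h, and 395 (2.47%) in both, 156 (0.974%) positive and 239 (1.49%) negative. Of the 2802 genes, 180 (6.42%) had a difference called in both fits. The count of 1746 was 6330 without copanlisib 4 h replicate 3 and between 425 and 1309 without any 1 of the other 11 libraries. List counts of called differences below are to be set beside 5.50% positive and 5.40% negative of all genes. For calls in both fits these shares are 0.974% and 1.49%.

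**Figure D2:**
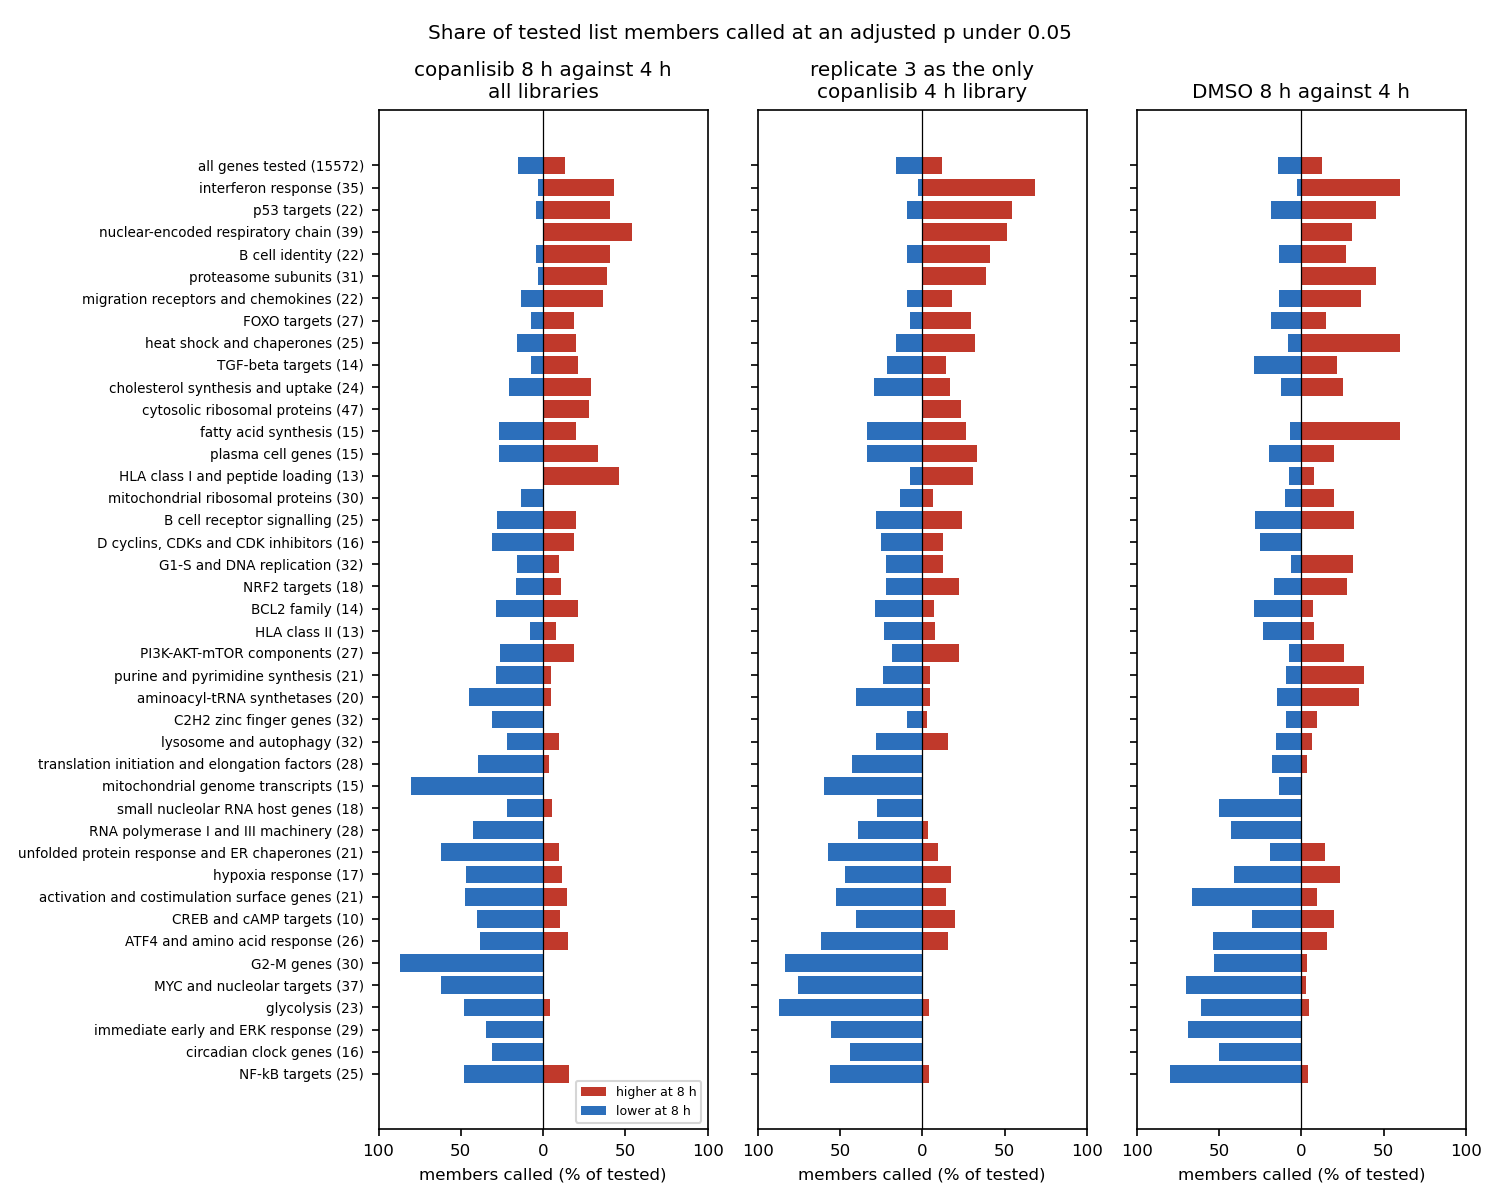
Share of the tested members of each gene list (rows, with the number tested, and all genes at the top) that were called higher (red, right) or lower (blue, left) at 8 h, for copanlisib with all libraries, copanlisib against replicate 3 alone, and DMSO. Lists with fewer than 10 tested members are left out, and the rows are ordered by the median change against replicate 3. G2-M genes had 26 of 30 members lower with all libraries and 25 against replicate 3, while zinc finger genes went from 10 of 32 lower to 3.

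Hypoxia-response and glycolysis genes were among the largest falls. These genes are classic targets of HIF-1, whose synthesis mTORC1 supports. Of 17 hypoxia-response genes tested, 8 fell and 2 rose with copanlisib, with a median log2 fold change of -0.29 beside 0.02 over all genes; the same 8 and 2 held against replicate 3. Of 23 glycolysis genes, 11 fell and 1 rose (median -0.16), and all 12 held; against replicate 3 alone 20 were lower and 1 higher (median -0.26). In DMSO, 14 glycolysis genes were lower and 1 higher (median -0.23), and 7 hypoxia-response genes were lower and 4 higher (median -0.00). The difference between the arms was called for 2 glycolysis and 2 hypoxia-response genes, all negative, beside 10.9% of all genes. It held in both fits for 1 glycolysis gene and 0 hypoxia-response genes. Leaving out 1 library gave 9 to 13 lower glycolysis genes and 7 to 9 lower hypoxia-response genes.

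P4HA1, a collagen prolyl hydroxylase (chromosome 10, 73007217 to 73096974, minus strand, hg38, gene bounds of GENCODE 29 as for the positions that follow), was at 169, 179 and 138 counts per 1000000 gene reads (CPM) in replicates 1 to 3 at 4 h and at 76.9, 76.5 and 83.7 at 8 h. The groups were well apart, and replicate 3 was the lowest of the 4 h libraries. P4HA1 changed by -1.03 ± 0.09 (SE) on the log2 scale (edgeR adjusted p = 0.00017), and -0.80 against replicate 3. In DMSO, P4HA1 went from 149 ± 3.71 to 99.3 ± 10.1 CPM (mean ± SD, n = 3 per group throughout), a log2 fold change of -0.58; the difference between the arms passed with all libraries (edgeR adjusted p = 0.026) and not with replicate 3 (0.12). NDRG1, a stress-induced gene used as a hypoxia marker, was at 239.6, 265 and 261 CPM at 4 h and 125, 122 and 130.0 at 8 h. Every 8 h library was below every 4 h library, and it fell in both arms: log2 fold change -1.02 ± 0.06 (SE) with copanlisib (edgeR adjusted p = 2.5e-05, against replicate 3 -1.05) and -1.0 with DMSO. MXI1, which encodes a MAX partner that opposes MYC, was at 38.7, 41.5 and 35.2 CPM and then 17.2, 16 and 20.1 CPM. All 8 h libraries were lower, with a log2 fold change of -1.11 ± 0.10 (SE) (edgeR adjusted p = 0.00017, against replicate 3 -0.98, DMSO -1.03). BNIP3, a receptor that directs mitochondria to autophagy, fell from 56.1, 52.4 and 50.6 to 27.5, 27.2 and 29.6 CPM (log2 fold change -0.91 ± 0.07 (SE), edgeR adjusted p = 0.00017, against replicate 3 -0.85) and stood at 11.6 ± 1.15 CPM at 12 h. In DMSO BNIP3 also fell (-0.78) and stood at 12 ± 0.88 CPM at 12 h.

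LDHA, the lactate dehydrogenase subunit that ends glycolysis (chromosome 11, 18394388 to 18408425, plus strand), was at 1417, 1442 and 1284 CPM at 4 h and 815, 832 and 866 at 8 h. The groups did not overlap. It fell, with a log2 fold change of -0.72 ± 0.06 (SE) (edgeR adjusted p = 0.00017; -0.62 against replicate 3). In DMSO it went from 1453 ± 28.3 to 1153 ± 47.1 CPM, a smaller fall (-0.33), and the difference between the arms was -0.37 on the log2 scale (edgeR adjusted p = 0.0054, and 0.0017 with replicate 3). At 12 h LDHA had 473 ± 20.3 CPM with copanlisib and 682 ± 20.4 CPM in DMSO. PDK1, which restrains entry of pyruvate into mitochondria, was at 105, 106 and 84.1 and then 48, 47.1 and 56.3 CPM (log2 fold change -0.96 ± 0.10 (SE), edgeR adjusted p = 0.00028, against replicate 3 -0.73, DMSO -0.48). PFKFB4, which makes an activator of phosphofructokinase, was at 35.7, 39.3 and 40.5 and then 21.4, 20.4 and 25.7 CPM (log2 fold change -0.77 ± 0.10 (SE), edgeR adjusted p = 0.0006, against replicate 3 -0.84). PFKFB4 was the one of these genes in which replicate 3 was the highest at 4 h.

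The promoters of these genes were searched for the core of the hypoxia response element, ACGTG or GCGTG, on both strands in the 250 bases upstream of the start (RefSeq, GRCh38.p14). It was found in 4 of the 5 lower hypoxia-response genes and in 5 of the 10 lower glycolysis genes that had a promoter in the table; 43.1% of all 27305 promoters hold it. The member with the most matches in each list is shown, 5′ to 3′ on the gene's strand, with matched letters in capitals (CACGTG counts on both strands). BNIP3 lies at chr10:131981924-131982173 (minus strand) and has 6 matches, and LDHA at chr11:18394313-18394562 (plus strand) has 5.
BNIP3: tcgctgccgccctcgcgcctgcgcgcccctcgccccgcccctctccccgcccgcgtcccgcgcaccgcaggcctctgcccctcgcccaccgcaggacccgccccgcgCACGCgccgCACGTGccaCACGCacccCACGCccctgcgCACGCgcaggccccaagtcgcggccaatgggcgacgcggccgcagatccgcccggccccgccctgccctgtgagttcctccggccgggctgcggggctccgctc
LDHA: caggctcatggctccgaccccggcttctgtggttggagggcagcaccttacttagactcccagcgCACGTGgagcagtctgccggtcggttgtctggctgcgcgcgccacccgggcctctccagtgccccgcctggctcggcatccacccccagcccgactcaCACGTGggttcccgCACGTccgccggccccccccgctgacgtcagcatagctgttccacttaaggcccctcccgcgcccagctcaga

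**Figure D3:**
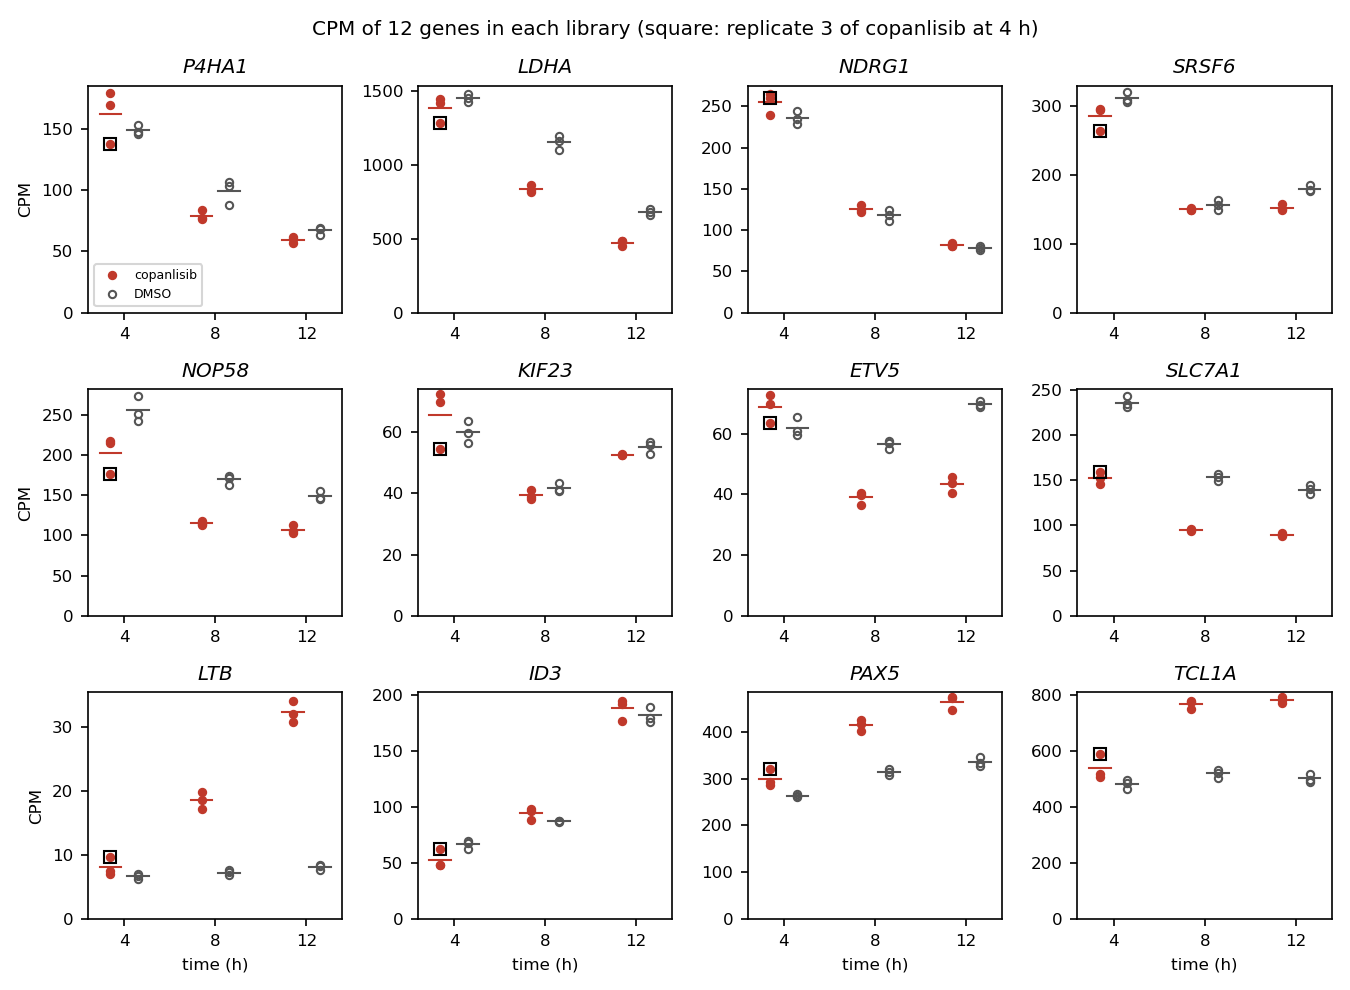
CPM (vertical axes, each from 0) of 12 genes in every library at 4, 8 and 12 h (horizontal axes), copanlisib as filled red and DMSO as open grey points, with group means as bars; a square marks replicate 3 of copanlisib at 4 h. LTB rises with copanlisib from 7.08, 7.56 and 9.67 CPM at 4 h to 18.5, 19.8 and 17.2 CPM at 8 h and is at 6.66 ± 0.42 and 7.23 ± 0.395 CPM in DMSO at these times, while NDRG1 falls in both arms.

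Mitotic genes fell as a group. Of 30 G2-M genes, 26 were lower at 8 h and none higher (median log2 fold change -0.35), and 22 held against replicate 3, where the median was -0.25. In DMSO 16 were lower and 1 higher (median -0.20), and the difference between the arms was called for 6, all negative, and in both fits for 2. Without 4 h replicate 2 the count of lower genes was 15. KIF23, a kinesin of the central spindle (chromosome 15, 69414246 to 69448427, plus strand), was at 70.02, 72.3 and 54.4 CPM at 4 h and 38.9, 38.3 and 41.3 at 8 h. Replicate 3 lay closer to the 8 h libraries than replicates 1 and 2 did, but above all of them. The log2 fold change came to -0.73 ± 0.10 (SE) (edgeR adjusted p = 0.00099), -0.46 against replicate 3 and -0.52 in DMSO. At 12 h KIF23 stood at 52.6 ± 0.35 CPM with copanlisib, above its 8 h and below its 4 h libraries. In DMSO it was at 59.9 ± 3.62, 41.8 ± 1.35 and 55.1 ± 2.02 CPM at 4, 8 and 12 h. KIF11, the kinesin that separates spindle poles, was at 92.4, 92.7 and 70.6 and then 53.9, 54.5 and 56.3 CPM (log2 fold change -0.63 ± 0.10 (SE), edgeR adjusted p = 0.0015, against replicate 3 -0.36), while in DMSO it went from 60.1 ± 3.28 to 55.3 ± 1.56 CPM. The KIF11 difference between the arms was -0.50 with all libraries (edgeR adjusted p = 0.015). It shrank to -0.26 with replicate 3, where it was not called. MKI67, the proliferation marker Ki-67, was at 264, 269.8 and 246 and then 170.2, 179.8 and 183 CPM. Here the 4 h libraries were close together, and the change was -0.55 ± 0.06 (SE) on the log2 scale (edgeR adjusted p = 0.00029, against replicate 3 -0.47). At 12 h MKI67 had 222 ± 8.65 CPM with copanlisib and 234 ± 2.58 CPM in DMSO.

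Many mitotic genes carry a cell cycle genes homology region, the letters TTTGAA or TTCGAA, through which they are silenced outside G2 and mitosis. These letters, on either strand, were present in 10 of the 19 lower G2-M genes with a promoter in the table and in 14.6% of all promoters. MKI67, at chr10:128126424-128126673 (minus strand), held 2, as did DLGAP5 and CCNF, the most in the list. Of these MKI67, described above, is shown with the matches in capitals.
MKI67: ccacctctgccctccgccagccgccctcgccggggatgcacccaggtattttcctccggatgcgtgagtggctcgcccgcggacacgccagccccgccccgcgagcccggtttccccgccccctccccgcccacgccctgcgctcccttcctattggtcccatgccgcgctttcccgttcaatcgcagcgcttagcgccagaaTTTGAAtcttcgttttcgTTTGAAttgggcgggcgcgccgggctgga

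G1-S and DNA replication genes were called no more often than all genes: 3 of 32 rose and 5 fell (median -0.04), beside 13.1% and 15.4% of all genes. CDC6, a loader of the replicative helicase, was at 36.1, 39 and 35.5 and then 28.2, 27.4 and 27 CPM (log2 fold change -0.42 ± 0.07 (SE), edgeR adjusted p = 0.0027, against replicate 3 -0.37). In DMSO it was flat (-0.01), and the difference held in both fits (edgeR adjusted p = 0.012 and 0.021). Among the D cyclins, CDKs and CDK inhibitors 3 of 16 rose and 5 fell. CDK6, a G1 kinase, was at 273, 261 and 229.8 and then 181, 189 and 192 CPM. It fell, with a log2 fold change of -0.44 ± 0.07 (SE) (edgeR adjusted p = 0.0016, against replicate 3 -0.29), against 0.01 in DMSO, with a difference called in both fits (edgeR adjusted p = 0.0056 and 0.0024). CCND2, a D cyclin, fell from 498, 504 and 495 to 421, 429.6 and 433 CPM (log2 fold change -0.22 ± 0.05 (SE), edgeR adjusted p = 0.0071, against replicate 3 -0.21). CCND3, the other lymphoid D cyclin of the list, was higher: 34.8, 37.7 and 45.8 CPM at 4 h and 56, 59.6 and 54.5 at 8 h (log2 fold change 0.53 ± 0.10 (SE), edgeR adjusted p = 0.0033, against replicate 3 0.31).

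Many genes of ribosome assembly fell. MYC drives many of them. Of the 37 genes in the list of MYC and nucleolar targets, 23 were lower and 0 higher (median -0.27), and 20 held; against replicate 3 alone 28 were lower (median -0.26). In DMSO 26 were lower and 1 higher (median -0.27), and the difference between the arms held in both fits for 7, all negative. Among 28 genes of the RNA polymerase I and III machinery 12 fell and 7 held, with none higher. Leaving out 1 library lowered these counts to 14 (without 8 h replicate 3) and 3 (without 4 h replicate 2). MYC itself was at 142, 145 and 148 CPM at 4 h and 113, 115 and 117 at 8 h, without overlap and with close replicates. On the log2 scale the change came to -0.33 ± 0.05 (SE) (edgeR adjusted p = 0.0021, against replicate 3 -0.36) and -0.33 in DMSO, where the level was higher at both times (235 ± 6.82 and 186 ± 7.68 CPM). NOP58, a core protein of box C/D small nucleolar RNPs, was at 217, 214 and 177 and then 113, 115 and 117 CPM. The 8 h libraries lay within a few CPM of one another, and the change was -0.81 ± 0.08 (SE) on the log2 scale (edgeR adjusted p = 0.00018, against replicate 3 -0.62, DMSO -0.59). DDX21, a nucleolar RNA helicase, was at 426, 414 and 363 and then 239, 257 and 261 CPM (log2 fold change -0.67 ± 0.07 (SE), edgeR adjusted p = 0.00026, against replicate 3 -0.52), a larger fall than in DMSO (-0.26; edgeR adjusted p of the difference 0.0081 and, with replicate 3, 0.0072).

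Some genes that charge tRNAs and make purines moved differently in the arms. Of 20 aminoacyl-tRNA synthetases 9 fell and 1 rose with copanlisib (median -0.15; against replicate 3 8 lower, 1 higher, median -0.06), while in DMSO 3 fell and 7 rose (median 0.08). The difference was called for 11, all negative, and in both fits for 5. Of 21 genes of purine and pyrimidine synthesis 6 fell and 1 rose, while in DMSO 2 fell and 8 rose; the difference was called for 7, all negative, and in both fits for 3. Without 4 h replicate 2 the counts of lower genes were 6 and 3. FARSB, a subunit of phenylalanyl-tRNA synthetase, was at 117, 116 and 98.1 CPM at 4 h and 68.1, 72.5 and 73.4 at 8 h, and at 134 ± 3.96 and 130.2 ± 6.2 in DMSO. The 8 h copanlisib libraries were below all libraries of the other 3 groups. FARSB moved by -0.63 ± 0.08 (SE) on the log2 scale (edgeR adjusted p = 0.00052, against replicate 3 -0.46) and the difference from DMSO -0.57 (edgeR adjusted p = 0.0028, with replicate 3 0.00042). PAICS, a bifunctional enzyme of purine synthesis, was at 255, 266 and 232 and then 172, 175 and 176 CPM, against 299 ± 4.96 and 299 ± 3.12 in DMSO. It fell, with a log2 fold change of -0.52 ± 0.06 (SE) (edgeR adjusted p = 0.0004, against replicate 3 -0.41), and the difference from DMSO was -0.51 (edgeR adjusted p = 0.00095, with replicate 3 5.8e-06). TARS1, which charges threonine tRNA, was at 215, 215 and 185 and then 130.0, 138 and 139 CPM (log2 fold change -0.59 ± 0.07 (SE), edgeR adjusted p = 0.0004, against replicate 3 -0.45, DMSO -0.29).

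ATF4, the transcription factor of the amino acid response, is fed by mTORC1 and by amino acid shortage. Of 26 genes of its response 10 fell and 4 rose (median -0.17), and 9 and 4 held; in DMSO 14 fell and 4 rose. SLC7A1, an importer of cationic amino acids, was at 146, 152 and 159 CPM at 4 h and 93.9, 95.7 and 95 at 8 h. The 4 h and 8 h libraries were each close together, and the change was -0.68 ± 0.06 (SE) on the log2 scale (edgeR adjusted p = 0.00017, against replicate 3 -0.75, DMSO -0.62). SLC7A5, the large neutral amino acid transporter, was at 86.9, 93.8 and 109.9 and then 58.4, 60.8 and 65.1 CPM (log2 fold change -0.65 ± 0.09 (SE), edgeR adjusted p = 0.00086, against replicate 3 -0.84). In DMSO it stood higher, at 264 ± 9.03 CPM, and fell to 125 ± 4.79 CPM (-1.08); the difference passed with all libraries (edgeR adjusted p = 0.019) and not with replicate 3 (0.077). DDIT3, the stress factor CHOP, was at 16, 14 and 12.5 and then 8.1, 9.99 and 8.67 CPM (log2 fold change -0.67 ± 0.12 (SE), edgeR adjusted p = 0.003, against replicate 3 -0.48).

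Some chaperones of the endoplasmic reticulum and of the cytosol differed between the arms. Of 21 genes of the unfolded protein response and ER chaperones 13 fell and 2 rose (median -0.26; against replicate 3 12 lower, 2 higher, median -0.15), while in DMSO 4 fell and 3 rose (median 0.01). The difference was called for 11 negative and 2 positive genes, and in both fits for 6, all negative. Of 25 heat shock genes 5 rose and 4 fell, while in DMSO 15 rose and 2 fell; the difference was called for 10, all negative, and in both fits for 5. Without 4 h replicate 2 the lower ER genes were 9, and leaving out 1 library gave 4 to 9 higher heat shock genes. CANX, the lectin chaperone calnexin, was at 742, 738 and 625 CPM at 4 h and 505, 529 and 522 at 8 h, and at 655 ± 15 and 639 ± 6.43 in DMSO. On the log2 scale the change came to -0.43 ± 0.07 (SE) (edgeR adjusted p = 0.0017, against replicate 3 -0.27) and the difference from DMSO -0.38 (edgeR adjusted p = 0.0074, with replicate 3 0.0064). DNAJB9, an ER co-chaperone, was at 34.6, 33.6 and 25.7 and then 20.7, 20.3 and 19.5 CPM (log2 fold change -0.64 ± 0.11 (SE), edgeR adjusted p = 0.0025, against replicate 3 -0.35, DMSO -0.59). The DNAJB9 difference between the arms was -0.02 and did not pass (edgeR adjusted p = 0.92). HSPH1, a nucleotide exchange factor of HSP70, rose from 359, 344 and 292 to 403, 415 and 426 CPM with copanlisib (log2 fold change 0.32 ± 0.07 (SE), edgeR adjusted p = 0.0086, against replicate 3 0.51) and from 324 ± 10.6 to 539 ± 25.1 in DMSO (0.74), a difference called in both fits (edgeR adjusted p = 0.012 and 0.021). AHSA1, an activator of HSP90, was at 135, 136 and 135 and then 170.1, 173 and 168 CPM (log2 fold change 0.33 ± 0.05 (SE), edgeR adjusted p = 0.0017, against replicate 3 0.34). The AHSA1 difference from DMSO, -0.16, was not called in both fits.

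Part of the early response genes and NF-kB targets fell with copanlisib, and the differences between the arms that were called in both fits were mostly positive. Of 29 immediate early and ERK response genes 10 fell and none rose (median -0.20), and all 10 held; against replicate 3 16 were lower. In DMSO 20 fell (median -0.47), and the difference was called in both fits for 10 positive and 2 negative genes. Of 25 NF-kB targets 12 fell and 4 rose with copanlisib (median -0.15), of which 11 and 1 held, while in DMSO 20 fell and 1 rose (median -0.49); the difference was positive and called in both fits for 7. The lower early response genes were 6 without 8 h replicate 1, and the higher NF-kB targets 1 without 4 h replicate 1. NR4A1, an orphan nuclear receptor induced by antigen receptor signals, was at 15.8, 16 and 21.5 CPM at 4 h and 15.2, 15.3 and 15.7 at 8 h. All 8 h libraries were below all 4 h libraries, though narrowly for replicates 1 and 2, and the change did not pass (log2 fold change -0.20 ± 0.12 (SE), edgeR adjusted p = 0.22; -0.48 against replicate 3). In DMSO it went from 61.7 ± 1.43 to 26.8 ± 1.04 CPM, and the difference between the arms was 1.02 (edgeR adjusted p = 0.0011, with replicate 3 6.3e-05). DUSP2, a phosphatase that ends ERK signals, was at 110.3, 114 and 184 and then 148, 150.3 and 147 CPM with copanlisib; replicate 3 was above all 8 h libraries and replicates 1 and 2 below them. The log2 fold change came to 0.12 ± 0.15 (SE) (edgeR adjusted p = 0.58) with all libraries and -0.32 against replicate 3, so no direction is given. The difference from DMSO, where it went from 398 ± 14.2 to 221 ± 4.53 CPM, was 0.98 with all libraries and 0.51 with replicate 3 (edgeR adjusted p = 0.0066 and 2.2e-06).

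ETV5, an ETS factor induced by ERK (chromosome 3, 186046308 to 186110318, minus strand), went the other way. It was at 72.8, 69.9 and 63.6 CPM at 4 h and 36.4, 40.6 and 39.9 at 8 h, without overlap, and at 61.9 ± 3.09 and 56.5 ± 1.44 CPM in DMSO. On the log2 scale the change came to -0.82 ± 0.08 (SE) (edgeR adjusted p = 0.00017, against replicate 3 -0.70), and the difference from DMSO -0.67 (edgeR adjusted p = 0.0011, with replicate 3 5e-05). FOSB, an AP-1 subunit, was at 5.53, 6.31 and 6.48 and then 3.59, 3.63 and 3.86 CPM (log2 fold change -0.72 ± 0.13 (SE), edgeR adjusted p = 0.0029, against replicate 3 -0.81, DMSO -1.03). EGR2, a zinc finger factor of antigen receptor responses, was at 23.5, 20.6 and 23.9 and then 14.1, 15 and 15.7 CPM (log2 fold change -0.60 ± 0.09 (SE), edgeR adjusted p = 0.0015, against replicate 3 -0.67, DMSO -0.48). EGR1 was at 14.8, 12.9 and 15.8 and then 8.81, 10.8 and 11.6 CPM (log2 fold change -0.47 ± 0.12 (SE), edgeR adjusted p = 0.015, against replicate 3 -0.60), a call lost without 8 h replicate 1 (0.082) and without 8 h replicate 2. REL, an NF-kB subunit of B cells, fell from 38.8, 31.5 and 30.1 to 20.1, 17.4 and 19.5 CPM (log2 fold change -0.82 ± 0.11 (SE), edgeR adjusted p = 0.00073, against replicate 3 -0.67, DMSO -0.95). BIRC3, an inhibitor of apoptosis that NF-kB induces, was at 232, 209 and 190.1 and then 129, 130.0 and 131 CPM (log2 fold change -0.69 ± 0.07 (SE), edgeR adjusted p = 0.00026, against replicate 3 -0.55, DMSO -0.91). BCL2L1, the survival gene of BCL-XL, was at 137, 147 and 148 and then 101, 105 and 100.4 CPM (log2 fold change -0.50 ± 0.06 (SE), edgeR adjusted p = 0.00044, against replicate 3 -0.53) and fell more in DMSO (-0.88), a difference called in both fits (edgeR adjusted p = 0.0044 and 0.0019). BCL2, which blocks apoptosis at mitochondria, fell in both arms, with copanlisib from 304, 306 and 264 to 201, 196 and 210.2 CPM (log2 fold change -0.52 ± 0.07 (SE), edgeR adjusted p = 0.00063, against replicate 3 -0.38, DMSO -0.48).

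Of 21 activation and costimulation surface genes 10 fell and 3 rose with copanlisib, and 10 and 2 held; in DMSO 14 fell and 2 rose. IL2RA, the alpha chain of the IL-2 receptor, was at 25.4, 25.7 and 23.1 and then 15.4, 14.3 and 15 CPM (log2 fold change -0.73 ± 0.08 (SE), edgeR adjusted p = 0.00038, against replicate 3 -0.63, DMSO -0.38). CD58, the ligand of CD2, was at 105, 96 and 77.4 and then 64.1, 59.4 and 60.7 CPM (log2 fold change -0.60 ± 0.10 (SE), edgeR adjusted p = 0.0022, against replicate 3 -0.34). TNFRSF13B, the receptor TACI for BAFF and APRIL, was higher: 51.5, 52.4 and 68.5 CPM at 4 h and 81.2, 81.6 and 82.2 at 8 h (log2 fold change 0.51 ± 0.10 (SE), edgeR adjusted p = 0.0043, against replicate 3 0.25).

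LTB, which encodes lymphotoxin beta, a ligand that shapes lymphoid tissue (chromosome 6, 31580525 to 31582522, minus strand), had the highest rise of the protein-coding genes that met the naming rule. It was at 7.08, 7.56 and 9.67 CPM at 4 h, 18.5, 19.8 and 17.2 at 8 h and 32.2 ± 1.61 at 12 h. Every 8 h library was above every 4 h library. The fold was 2.29 (log2 fold change 1.2 ± 0.12 (SE), edgeR adjusted p = 0.00025, against replicate 3 0.93). In DMSO LTB was at 6.66 ± 0.42 and then 7.23 ± 0.395 CPM, and the difference between the arms was 1.09 on the log2 scale (edgeR adjusted p = 0.0032, with replicate 3 0.005).

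Part of the B cell identity genes were higher at 8 h. Of 22 tested 9 rose and 1 fell (median 0.14), and 6 rises held; in DMSO 6 rose and 3 fell (median -0.01), and the difference was called for 10 positive genes and 1 negative, and in both fits for 4 positive genes. The count of higher genes was 5 without 4 h replicate 2. The median GC content of the list, 54.9%, falls in the fourth of the 5 GC classes, where the median of all genes was 0.11 with all libraries and 0.02 against replicate 3; the list's own median against replicate 3 was 0.10. PAX5, the factor that commits cells to the B lineage (chromosome 9, 36833275 to 37034185, minus strand), was at 286, 292 and 321 CPM at 4 h and 401, 424 and 416 at 8 h. Replicate 3 was the highest at 4 h and still below every 8 h library, with a log2 fold change of 0.47 ± 0.06 (SE) (edgeR adjusted p = 0.0006, against replicate 3 0.36, DMSO 0.26). TCL1A, a coactivator of AKT, was at 508, 517 and 589 and then 776, 774 and 749 CPM, against 481 ± 16.9 and 519 ± 14.8 in DMSO. It rose, with a log2 fold change of 0.51 ± 0.06 (SE) (edgeR adjusted p = 0.00052, against replicate 3 0.38), with a difference from DMSO called in both fits (0.42; edgeR adjusted p = 0.0075 and 0.0084). CD79B, a signalling chain of the B cell receptor, was at 30.6, 32.8 and 42.2 and then 52.2, 53 and 49.8 CPM (log2 fold change 0.56 ± 0.11 (SE), edgeR adjusted p = 0.004, against replicate 3 0.29, DMSO 0.03), and its difference passed with all libraries only (edgeR adjusted p = 0.026, with replicate 3 0.22). The signalling genes of the receptor as a list were mixed, with 5 of 25 higher and 7 lower, beside 13.1% and 15.4% of all genes. MALT1, a paracaspase that carries the receptor's signal to NF-kB, fell from 206, 187 and 158 to 131, 134 and 134 CPM (log2 fold change -0.46 ± 0.08 (SE), edgeR adjusted p = 0.0032, against replicate 3 -0.24). LYN, the kinase next to the receptor, fell from 328, 329 and 293 to 228, 238 and 242 CPM (log2 fold change -0.42 ± 0.06 (SE), edgeR adjusted p = 0.0012, against replicate 3 -0.31).

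Many interferon-response genes rose in both arms. Of 35 tested 15 rose and 1 fell with copanlisib (median 0.22), and 13 and 1 held; against replicate 3 alone 24 rose and 1 fell (median 0.31), and in DMSO 21 rose and 1 fell (median 0.29). Without 8 h replicate 1, 7 were higher. IRF7, an amplifier of interferon production, was at 34.3, 38.9 and 53.7 CPM at 4 h and 68.3, 66.7 and 65.4 at 8 h. Replicate 3 stood well above replicates 1 and 2 at 4 h, and the log2 fold change of 0.66 ± 0.13 (SE) (edgeR adjusted p = 0.0046) became 0.31 against it. ISG15, a ubiquitin-like protein, was at 11.7, 11.3 and 22.3 and then 26.5, 26.8 and 26 CPM (log2 fold change 0.82 ± 0.20 (SE), edgeR adjusted p = 0.013), and 0.25 against replicate 3. Its call was lost without 4 h replicate 2 and without each of the 8 h libraries (edgeR adjusted p up to 0.079). CXCL10, a chemokine that attracts T cells, rose from 555, 549.8 and 432 to 753, 742 and 712 CPM (log2 fold change 0.52 ± 0.08 (SE), edgeR adjusted p = 0.0019, against replicate 3 0.77) and reached 1254 ± 9.66 CPM at 12 h; in DMSO it rose by 0.74.

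The core of the interferon-stimulated response element, a pair of GAAA words 2 bases apart on either strand, was present in 4 of the 8 higher interferon genes that had a promoter in the table, and in 3.1% of all promoters. IFI6, an interferon-induced protein of mitochondria, held 3, the most in the list, and is shown for that (chosen after its values were seen). It lies at chr1:27672193-27672442 (minus strand) and was at 17.9, 20.4 and 26 and then 37.1, 32.8 and 30.2 CPM (log2 fold change 0.64 ± 0.13 (SE), edgeR adjusted p = 0.0048, against replicate 3 0.35).
IFI6: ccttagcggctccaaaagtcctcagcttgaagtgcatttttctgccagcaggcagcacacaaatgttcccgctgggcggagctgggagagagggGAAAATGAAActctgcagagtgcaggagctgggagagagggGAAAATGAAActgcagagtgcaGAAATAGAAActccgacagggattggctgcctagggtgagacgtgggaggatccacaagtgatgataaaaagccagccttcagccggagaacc

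Over all genes 13.1% rose and 15.4% fell with copanlisib. Among 13 genes of HLA class I and peptide loading 6 rose, of which 3 held, and none rose without 8 h replicate 1. PSMB8, an immunoproteasome subunit, was at 105, 110.5 and 133 and then 157, 156 and 147 CPM (log2 fold change 0.40 ± 0.08 (SE), edgeR adjusted p = 0.0061, against replicate 3 0.20; up to 0.063 without 1 library, lost without 8 h replicate 1 or 2). Of 13 HLA class II genes 1 rose and 1 fell. Of 31 proteasome subunits 12 rose and 1 fell with copanlisib, with 10 rises that held, and 14 rose in DMSO; no subunit was called higher without 8 h replicate 1.

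FOXO targets were called about as often as all genes (28.5%). Of 27 FOXO targets 5 rose and 2 fell (median 0.05), and 4 and 2 held; none was called higher without 8 h replicate 1. TXNIP, an inhibitor of glucose uptake, was at 134, 147 and 127 CPM at 4 h and 141, 144 and 143 at 8 h, and it did not pass (log2 fold change 0.07 ± 0.06 (SE), edgeR adjusted p = 0.42). Against replicate 3, the lowest of the 4 h libraries, the log2 fold change of TXNIP was 0.16. CXCR4, a chemokine receptor, was at 151, 159 and 153 and then 160.3, 152 and 167 CPM (0.05 ± 0.06 (SE), edgeR adjusted p = 0.53, against replicate 3 0.07). Both were above their DMSO levels at 4 h, 72.6 ± 1.74 and 87.8 ± 2.28 CPM. PIK3IP1, an inhibitor of PI3K, rose from 16.2, 16 and 17.8 to 20.7, 19.9 and 21.5 CPM (log2 fold change 0.32 ± 0.08 (SE), edgeR adjusted p = 0.017), a call that did not hold against replicate 3 (0.22) and was lost without 4 h replicate 2 or any 1 of the 8 h libraries (up to 0.1). TSC22D3, the glucocorticoid-induced leucine zipper, was at 127, 136 and 137 and then 159, 159 and 153 CPM (log2 fold change 0.24 ± 0.06 (SE), edgeR adjusted p = 0.011, against replicate 3 0.19; up to 0.078 without 1 of the 8 h libraries, each of which ended the call), and its difference from DMSO (85.6 ± 2.87 and then 79.4 ± 1.87 CPM) held in both fits (edgeR adjusted p = 0.0086 and 0.013). SESN1, a stress-induced inhibitor of mTORC1, was at 16.1, 15.9 and 14.6 and then 18.9, 18.4 and 18.4 CPM (log2 fold change 0.26 ± 0.08 (SE), edgeR adjusted p = 0.037, against replicate 3 0.34; up to 0.13, with the call lost without each library other than 4 h replicate 3). In DMSO it went from 9.86 ± 0.55 to 18.1 ± 0.704 CPM, and the difference was -0.60 (edgeR adjusted p = 0.0053, with replicate 3 0.017).

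Of 27 components of PI3K, AKT and mTOR signalling 5 rose and 7 fell, beside 13.1% and 15.4% of all genes. DDIT4, an mTORC1 inhibitor known as REDD1, was at 109.6, 118 and 155 CPM at 4 h and 187, 177 and 193 at 8 h (log2 fold change 0.54 ± 0.11 (SE), edgeR adjusted p = 0.0046, against replicate 3 0.26). TSC1, which restrains RHEB, was at 44.8, 43.4 and 40.1 and then 33.1, 30.9 and 31 CPM (log2 fold change -0.43 ± 0.07 (SE), edgeR adjusted p = 0.0026, against replicate 3 -0.34). RHEB, the activator of mTORC1, was at 27.8, 26.2 and 26.3 and then 20.3, 20.7 and 19.3 CPM (log2 fold change -0.41 ± 0.08 (SE), edgeR adjusted p = 0.0036, against replicate 3 -0.39, DMSO -0.37). The survival kinase gene PIM2 was at 463, 504 and 506 and then 545, 546 and 523 CPM and did not pass (0.13 ± 0.05 (SE), edgeR adjusted p = 0.083, against replicate 3 0.09). Nor did TP53INP1, a stress-induced p53 target, at 205, 200.1 and 184 and then 209.6, 200.4 and 206 CPM (0.07 ± 0.06 (SE), edgeR adjusted p = 0.4). Against replicate 3, the lowest of the 4 h libraries, the log2 fold change of TP53INP1 was 0.16. In DMSO it rose by 0.34 (edgeR adjusted p = 0.00011), and the difference of -0.25 passed with all libraries (edgeR adjusted p = 0.031) and not with replicate 3 (0.12). Of 22 p53 targets 9 rose and 1 fell, and all 10 held; in DMSO 10 rose and 4 fell, and without 8 h replicate 1 there were 4 rises. FDXR, a mitochondrial reductase, was at 40.2, 44.5 and 59 and then 81.3, 81.7 and 79.8 CPM (log2 fold change 0.76 ± 0.11 (SE), edgeR adjusted p = 0.0015, against replicate 3 0.45). SPATA18, a mitochondrial quality control gene, was at 9.07, 7.71 and 6.64 and then 13.9, 12.6 and 13 CPM (log2 fold change 0.75 ± 0.12 (SE), edgeR adjusted p = 0.0017, against replicate 3 0.98).

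Several lists moved with the departure of 4 h replicates 1 and 2. Of 32 C2H2 zinc finger genes, with a median GC content of 40.1%, 10 fell with all libraries and 3 held; the median went from -0.27 to -0.06 against replicate 3, and the count of lower genes was 25 without replicate 3 and 1 without replicate 2. Transcripts of the mitochondrial genome fell in 12 of 15 cases with all libraries (median -0.33) and in 9 against replicate 3 (median -0.10); 6 were lower without 4 h replicate 2. They made up 12.4%, 12.6% and 10.1% of gene reads at 4 h and 9.50% to 9.82% at 8 h. MT-RNR2, the large ribosomal RNA of mitochondria, was at 22069, 22559 and 17334 CPM at 4 h and 15705, 15983 and 16217 at 8 h (log2 fold change -0.37 ± 0.08 (SE), edgeR adjusted p = 0.0088, against replicate 3 -0.12). MT-ND1, a complex I subunit, was at 5365, 5732 and 4673 and then 3675, 3933 and 3884 CPM (log2 fold change -0.45 ± 0.07 (SE), edgeR adjusted p = 0.0016, against replicate 3 -0.29). The part of GC content in these results was not tested beyond these values and the GC-corrected counts in the closing section.

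Nuclear genes of the respiratory chain went up: 21 of 39 rose and none fell (median 0.19), 14 held, and the median against replicate 3 was 0.11; in DMSO 12 rose and none fell (median 0.09), and edgeR called no difference between the arms (15 at an unadjusted p under 0.05; 3 called by DESeq2 and 3 by limma). Without 8 h replicate 1, 3 were higher. NDUFA8, a complex I subunit, was at 31.6, 29.1 and 31 CPM at 4 h and 43, 44 and 41 at 8 h. The 4 h libraries agreed, and the change was 0.48 ± 0.07 (SE) on the log2 scale (edgeR adjusted p = 0.0014, against replicate 3 0.46, DMSO 0.28). Of 47 cytosolic ribosomal protein genes 13 rose and none fell (median 0.07), beside 13.1% and 15.4% of all genes, and 9 held. In DMSO none was called by edgeR, DESeq2 or limma or reached an unadjusted p under 0.05. The difference between the arms was called for 4 with all libraries, all positive, beside 5.50% positive of all genes, and for 0 in both fits. The count of higher genes with copanlisib was 1 without 4 h replicate 2 and 25 without 4 h replicate 3. RPS29 was at 219, 253 and 291 and then 375, 348 and 342 CPM (log2 fold change 0.48 ± 0.09 (SE), edgeR adjusted p = 0.0032, against replicate 3 0.29, DMSO 0.06), and its difference passed with all libraries (edgeR adjusted p = 0.045) and not with replicate 3 (0.23). Of 28 translation initiation and elongation factors 11 fell and 1 rose, and 7 falls held; 4 were lower without 4 h replicate 2. EIF3J, a loosely bound subunit of eIF3, fell from 147, 139 and 114 to 86.6, 92.8 and 91.9 CPM (log2 fold change -0.56 ± 0.09 (SE), edgeR adjusted p = 0.0016, against replicate 3 -0.34).

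Of 16 circadian clock genes 5 fell and none rose (median -0.26), and all 5 held; against replicate 3 alone 7 were lower (median -0.27), and in DMSO 8 (median -0.25). Without 4 h replicate 2 the count was 3. PER2, a repressor of the clock, was at 15, 16.4 and 16.8 and then 11.3, 11.1 and 10.8 CPM (-0.54 ± 0.09 (SE), edgeR adjusted p = 0.0022, against replicate 3 -0.61, DMSO -1.03). Cholesterol synthesis and uptake genes had 7 of 24 higher and 5 lower. HMGCS1, an early enzyme of that pathway, was at 172, 164 and 149 and then 127, 133 and 127 CPM (-0.32 ± 0.06 (SE), edgeR adjusted p = 0.0047, against replicate 3 -0.21). INSIG1, which restrains the pathway, was at 129, 131 and 124 and then 92.1, 90.01 and 87.1 CPM (-0.52 ± 0.06 (SE), edgeR adjusted p = 0.00037, against replicate 3 -0.47). Fatty acid synthesis genes had 3 of 15 higher and 4 lower, beside 9 higher and 1 lower in DMSO. Over all genes 13.1% were higher and 15.4% lower, beside which the counts of these lists are set. Plasma cell genes had 5 of 15 higher and 4 lower, of which 3 and 4 held. Migration receptors and chemokines had 8 of 22 higher and 3 lower, of which 4 and 2 held. Lysosome and autophagy genes had 3 of 32 higher and 7 lower, of which 2 and 5 held. The BCL2 family had 3 of 14 higher and 4 lower, TGF-beta targets 3 of 14 higher and 1 lower, NRF2 targets 2 of 18 higher and 3 lower, and CREB and cAMP targets 1 of 10 higher and 4 lower. Small nucleolar RNA host genes had 1 of 18 higher and 4 lower, and mitochondrial ribosomal proteins 4 of 30 lower. None of 8 tested cholesterol efflux genes (2 at an unadjusted p under 0.05) and none of 7 tested replication-dependent histone genes (0 at an unadjusted p under 0.05) was called by edgeR, DESeq2 or limma. ID3, an inhibitor of helix-loop-helix factors from the TGF-beta list, was at 48.7, 48.1 and 62.7 and then 96.5, 98.4 and 88.8 CPM (0.83 ± 0.10 (SE), edgeR adjusted p = 0.00042, against replicate 3 0.59) and at 188 ± 9.71 CPM at 12 h.

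The other genes with the largest falls came from no list. IL18RAP, the accessory chain of the IL-18 receptor (chromosome 2, 102418689 to 102452565, plus strand), was at 13.2, 14.3 and 14.8 CPM at 4 h and 5.46, 5.1 and 6.55 at 8 h, with no overlap. It fell, with a log2 fold change of -1.3 ± 0.12 (SE) (edgeR adjusted p = 0.00017, against replicate 3 -1.36, DMSO -0.98). SRSF6, a splicing factor rich in serine and arginine, was at 294, 296 and 264 and then 148, 152 and 149.5 CPM. The 8 h libraries differed by a few CPM, and SRSF6 fell in both arms (log2 fold change -0.92 ± 0.06 (SE), edgeR adjusted p = 3.7e-05, against replicate 3 -0.82, DMSO -1.0). DDN, the gene of dendrin, was at 13.6, 14.8 and 14.2 and then 5.8, 5.78 and 7.34 CPM (-1.16 ± 0.11 (SE), edgeR adjusted p = 0.00023, against replicate 3 -1.16, DMSO -0.97). RIPK2, a kinase that links NOD receptors to NF-kB, was at 123, 122 and 98.3 and then 65, 65.3 and 64.4 CPM (-0.82 ± 0.08 (SE), edgeR adjusted p = 0.00026, against replicate 3 -0.60, DMSO -0.78). WDFY1, an adaptor of endosomal Toll-like receptors, was at 307, 309 and 264 and then 161, 163 and 171 CPM (-0.83 ± 0.07 (SE), edgeR adjusted p = 0.00017, against replicate 3 -0.68), with a smaller fall in DMSO (-0.37) and a difference called in both fits (edgeR adjusted p = 0.0055 and 0.0024). PPFIA4, of the liprin-alpha family, was at 14.5, 12.6 and 15.3 and then 7.28, 7.08 and 8.4 CPM (-0.89 ± 0.11 (SE), edgeR adjusted p = 0.00061, against replicate 3 -1.0, DMSO -0.64). At 12 h PPFIA4 had 1.64 ± 0.343 CPM with copanlisib and 2.01 ± 0.206 CPM in DMSO.

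Genes with the largest rises were of low level. TEKT4, a tektin of cilia and flagella, was at 14.5, 16.6 and 21.3 CPM at 4 h and 37.7, 35.5 and 34.5 at 8 h. Every 8 h library was above every 4 h library, with a log2 fold change of 1.04 ± 0.12 (SE) (edgeR adjusted p = 0.00039, against replicate 3 0.75, DMSO 0.37). SLC25A35, a mitochondrial carrier, was at 7.13, 7.46 and 8.45 and then 16.4, 15.7 and 14.2 CPM (1.01 ± 0.11 (SE), edgeR adjusted p = 0.00028, against replicate 3 0.86, DMSO 0.82). FGD3, an exchange factor for CDC42, was at 10.5, 10.3 and 12 and then 20.02, 20.1 and 22.1 CPM (0.93 ± 0.09 (SE), edgeR adjusted p = 0.00026, against replicate 3 0.79, DMSO 0.68). CMKLR1, the chemerin receptor, was at 5.14, 6.07 and 5.79 and then 11.7, 9.91 and 10.6 CPM (0.92 ± 0.11 (SE), edgeR adjusted p = 0.00058, against replicate 3 0.89, DMSO 0.90). TTC28 was at 12, 14.5 and 11.5 and then 22.2, 23.2 and 23.9 CPM (0.87 ± 0.10 (SE), edgeR adjusted p = 0.00039, against replicate 3 1.01, DMSO 0.87). TST, a mitochondrial sulfur transferase, was at 9.02, 11.8 and 11.6 and then 20.4, 19.4 and 19.8 CPM (0.88 ± 0.11 (SE), edgeR adjusted p = 0.00052, against replicate 3 0.78, DMSO 0.34), and FARS2, the mitochondrial phenylalanyl-tRNA synthetase, at 5.33, 5.77 and 6.91 and then 10.4, 11.9 and 10.3 CPM (0.86 ± 0.12 (SE), edgeR adjusted p = 0.0012, against replicate 3 0.65, DMSO 1.04).

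In 6 further genes of this group the rise was smaller against replicate 3: the log2 fold change went from 1.06 with all libraries to 0.44 against replicate 3 in MFSD3, from 0.99 to 0.51 in ANTKMT, from 0.92 to 0.56 in ALDH16A1, from 0.89 to 0.48 in POLD4, from 0.86 to 0.52 in DGKQ and from 0.85 to 0.34 in SDF2L1. MFSD3, a transporter-like membrane protein, had 9.75, 10.3 and 20.7 CPM at 4 h and 31.9, 27.7 and 25.4 at 8 h, so replicate 3 held a value well above replicates 1 and 2. Its call (edgeR adjusted p = 0.0063) was lost without 8 h replicate 1 (0.062), and that of SDF2L1, an ER chaperone partner (edgeR adjusted p = 0.0077), without 8 h replicate 1 or 3 (up to 0.068).

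The largest differences between the arms came in both directions. ANK2, the gene of ankyrin-B (chromosome 4, 112818109 to 113383740, plus strand), moved in opposite directions: 19, 17.8 and 16.9 and then 11, 10.1 and 9.92 CPM with copanlisib, and 18.7 ± 1.03 and then 25.1 ± 1.9 CPM in DMSO. It fell with copanlisib (log2 fold change -0.79 ± 0.09 (SE), edgeR adjusted p = 0.0004) and rose in DMSO (0.42, edgeR adjusted p = 0.00076), a difference of -1.19 (edgeR adjusted p = 8.9e-05, with replicate 3 2.2e-06). ZFHX4, a zinc finger homeobox factor, was at 13.8, 14.4 and 13.2 and then 13.7, 13.7 and 13.8 CPM with copanlisib (-0.01 ± 0.08 (SE), edgeR adjusted p = 0.97, against replicate 3 0.06) and rose from 8.33 ± 0.611 to 14.1 ± 1.21 CPM in DMSO; the difference was -0.75 (edgeR adjusted p = 0.0039, with replicate 3 0.0047). FANCM, a helicase of the Fanconi anemia pathway, was at 13.2, 12.5 and 10.9 and then 11.1, 10.4 and 10.8 CPM with copanlisib (-0.18 ± 0.10 (SE), edgeR adjusted p = 0.19, against replicate 3 -0.03) and rose from 8.49 ± 1.27 to 12.5 ± 0.445 CPM in DMSO, a difference of -0.72 (edgeR adjusted p = 0.0093, with replicate 3 0.042). FAM111B, a protease of replicating cells, fell from 81.7, 79.7 and 58.8 to 45.5, 40.2 and 46.1 CPM with copanlisib (-0.74 ± 0.11 (SE), edgeR adjusted p = 0.0016, against replicate 3 -0.42) and was at 42.6 ± 8.14 and then 47.3 ± 8.74 CPM in DMSO, a difference of -0.86 (edgeR adjusted p = 0.017, with replicate 3 0.027).

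KREMEN2, a receptor of Dickkopf proteins, was at 19.2, 23.6 and 37.4 and then 32.4, 33.6 and 33.2 CPM with copanlisib; replicate 3 was above the 8 h libraries and the others below, so the change is 0.32 with all libraries and -0.18 against replicate 3, neither of them given as a direction. It fell from 43.1 ± 3.34 to 27.1 ± 1.45 CPM in DMSO, and the difference was 1.0 with all libraries and 0.47 with replicate 3 (edgeR adjusted p = 0.015 and 0.0056). GNB1L, a WD40 repeat protein, behaved likewise, at 5.82, 8.3 and 10.4 and then 8.34, 8.35 and 9.5 CPM with copanlisib and 15 ± 0.41 and then 8.23 ± 0.615 CPM in DMSO (difference 0.98, edgeR adjusted p = 0.012, with replicate 3 alone 0.59, edgeR adjusted p = 0.034). RGL1, an exchange factor for Ral, was at 8.44, 7.86 and 8.4 and then 8.91, 9.7 and 9.84 CPM with copanlisib (0.21 ± 0.10 (SE), edgeR adjusted p = 0.14, against replicate 3 0.18) and rose from 5.77 ± 0.822 to 10.9 ± 1.79 CPM in DMSO (difference -0.69, edgeR adjusted p = 0.023, with replicate 3 0.029); the call was lost without copanlisib 8 h replicate 1, DMSO 4 h replicate 2 or DMSO 8 h replicate 2 (edgeR adjusted p up to 0.066). PER1 and DUSP1, both early targets of cAMP signalling, changed by -0.89 and -0.82 on the log2 scale in DMSO. With copanlisib PER1 was at 35.7, 37.6 and 46.6 and then 32.5, 32.5 and 33.3 CPM (-0.28 ± 0.10 (SE), edgeR adjusted p = 0.049, against replicate 3 -0.51). DUSP1 was at 20.4, 21.7 and 22.7 and then 19.4, 18 and 17.4 CPM (-0.24 ± 0.08 (SE), edgeR adjusted p = 0.0499, against replicate 3 -0.32). The PER1 call was lost without 4 h replicate 2 or any 1 of the 8 h libraries. The DUSP1 call was lost without any 1 library other than 4 h replicate 3 (edgeR adjusted p up to 0.16 for both). The differences from DMSO were 0.63 and 0.59 (edgeR adjusted p = 0.0076 and 0.0053, with replicate 3 0.013 and 0.012), called without each of the 12 libraries in turn. The differences of P4HA1, SLC7A5, CD79B, RPS29 and TP53INP1, which passed with all libraries and not with replicate 3, were lost without 6, 3, 6, 9 and 8 of the 12 libraries. Other named genes showed this pattern, among them PDK1, TARS1, IL2RA, MKI67, KIF11 and PER2. The differences of PDK1, TARS1, IL2RA and MKI67 were lost without 8, 9, 10 and 6 libraries. Those of KIF11 and PER2 were called without each library in turn.

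**Figure D4:**
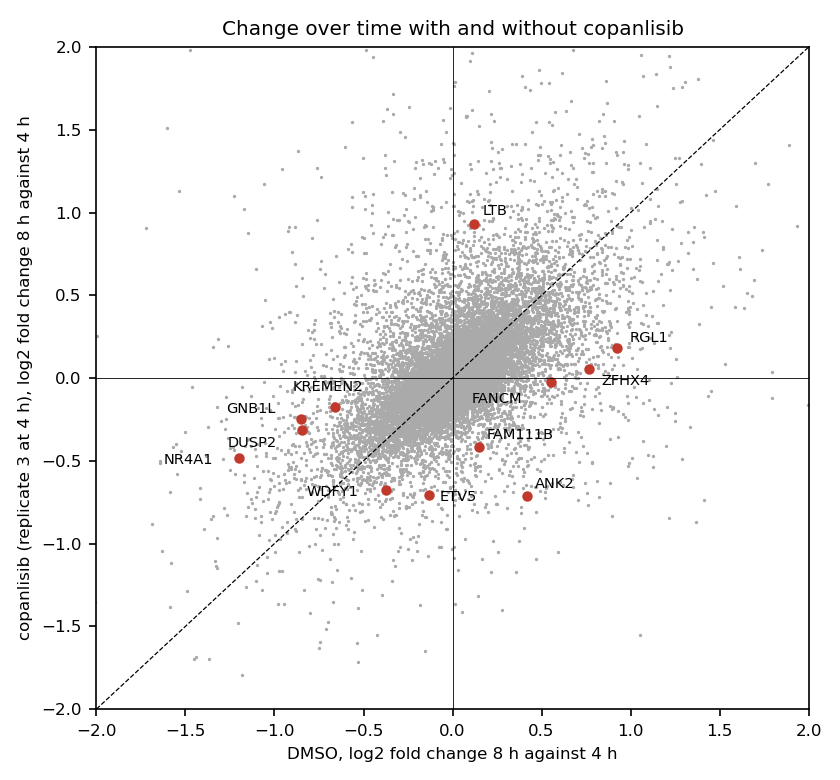
Log2 fold change from 4 h to 8 h in DMSO (horizontal axis) and with copanlisib against replicate 3 alone (vertical axis), 1 point per gene tested in both; red points are the 12 genes named for the size of their change or of the difference and called different between the arms in both fits and the dashed line marks equal change. LTB lies at 0.93 with copanlisib and 0.12 in DMSO, ANK2 at -0.71 and 0.42; 29 of 15562 genes lie outside the plotted range of -2 to 2.

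The libraries held B cell transcripts. All 8 B cell markers exceeded 1 CPM in each of the 6 libraries, with a summed level of 1549 to 1636 CPM at 4 h and 1847 to 1879 at 8 h. Markers of T and NK cells summed to 12.8 to 17.3 and 15.9 to 16.5 CPM, with 2 of 8 at 0 in every library, and myeloid markers to 4.69 to 6.42 and 7.81 to 8.23. Stromal and epithelial markers summed to 961 to 1011 and 996 to 1021 CPM. Of this VIM, an intermediate filament gene that lymphoid cells also express, held 894 to 931 and 903 to 924 CPM. Of the 10, 7 exceeded 1 CPM in each library, among them COL1A1 (14.3 to 20.5 CPM at 4 h and 25.8 to 27.6 at 8 h), KRT8 (12.3 to 18.3 and 20.02 to 20.2), KRT18 (22 to 24.4 and 26.2 to 28.9) and CDH1 (10.02 to 11.2 and 13.4 to 14.7). KRT19 was at 0 in all 6 libraries and COL1A2 stayed at or below 0.0968 CPM. Of the 7 tested, COL1A1, KRT8 and CDH1 were called higher at 8 h, with COL1A1 alone holding against replicate 3. The part of these markers in the results was not tested. The labels' extraction protocol speaks of retinas, against the cell line of the other labels; retina markers summed to 9.06 to 10.5 CPM at 4 h and 9.58 to 10.8 at 8 h, with 2 of 10 above 1 CPM in all 6 libraries. Erythroid markers stayed at or below 0.0782 CPM. Since the counts are of bulk RNA, more transcript per cell and more cells of a kind cannot be told apart.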

How the data were processed

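RNA of HAIR-M cells was sequenced in 18 libraries, 3 per group. The authors deposited raw read counts per gene, with no normalization; the submitters' processing notes name hg38, STAR 2.5.2b and CASAVA 1.7. The annotation behind the counts was not given in the sources used here. Of the 60483 gene identifiers, 56321 were named from a gene name table and 432 from GENCODE 29, and 3730 stayed unnamed. The kit named in the labels does not mark strand, yet 1 strand column held 94.3% to 95.3% of stranded reads in each library; that column was used. Lines for unmapped, multimapping, unassigned and ambiguous reads were left out; gene reads were 67.5% to 75.2% of all reads. Reads from near-identical genes are undercounted, since multimapping reads were not counted.

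Tests used R 4.3.3 and edgeR 4.0.16 (quasi-likelihood, TMM, filterByExpr, two-sided, Benjamini-Hochberg, threshold 0.05) on the 6 copanlisib libraries at 4 h and 8 h, and on 12 libraries for DMSO and for the difference between the arms. The fit to 6 libraries had a common biological coefficient of variation of 0.0729. Printed CPM were scaled by TMM over all 18 libraries, and SE is the log2 fold change divided by the root of F. Counts were simulated for the 15572 genes of the 8 h against 4 h comparison, with changes planted only in genes above a minimum mean count. Of these planted changes, 75% of those of 0.5 (log2) were recovered. Of changes of 1, 100% were recovered, and 6.42% of calls were false. For the difference between the arms the recovery was 63% and 92%, and 4.91% of calls were false. Recovery in genes of lower count was not tested. These rates describe the simulated counts only. Whether they hold for the sequenced libraries, which at 4 h departed from one another with GC content, was not tested. P-values measure only the spread between libraries, which may be technical. Replicate numbers did not pair libraries: deviations of same-numbered libraries at 4 h and 8 h correlated at -0.03, 0.05 and -0.04.

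Named genes were the 14 highest and 14 lowest changes among protein-coding genes whose mean log2 CPM reached 3, called in both fits and with groups that did not overlap; up to 3 members of each of 49 lists called in both fits (otherwise the member with the smallest p); 12 genes fixed by name; the 5 highest and 5 lowest differences between the arms; and up to 3 genes per direction whose sign was opposite against replicate 3, which named none. The members and the gene lists were chosen with earlier results of these data known. No set test was run. Alternatives were DESeq2 1.42.0, limma 3.58.1, other size factors and filters, a GC offset (lowess span 0.3), a replicate block, counts without strand and leaving out each library.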

Additional observations from a re-analysis of the deposited data

Results flagged for a closer look

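For 26 of the 163 named genes the change from 4 h to 8 h differed between copanlisib and DMSO by the test of the difference itself, both with all libraries and when the 4 h copanlisib group held replicate 3 alone. Values are the copanlisib change minus the DMSO change on the log2 scale with all libraries, and all edgeR adjusted p lay under 0.05 in both fits. The call held without each of the 12 libraries in turn in 25 of them, the exception being RGL1. The 5 highest and 5 lowest differences were named by this same test, so the count of 26 was partly fixed by the choice. Of all 16018 genes tested, 395 (2.47%) were called in both fits.

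The difference was positive for LTB (1.09), NR4A1 (1.02), KREMEN2 (1.0), DUSP2 (0.98), GNB1L (0.98), PER1 (0.63), DUSP1 (0.59), TCL1A (0.42), BCL2L1 (0.40) and TSC22D3 (0.36). Of these, LTB, TCL1A and TSC22D3 rose with copanlisib and were not called in DMSO. The TSC22D3 call was lost without each of the 3 libraries at 8 h. NR4A1, KREMEN2, DUSP2 and GNB1L fell in DMSO and were not called with copanlisib with all libraries. Against replicate 3 the fold change of NR4A1 was also negative, while those of DUSP2 and KREMEN2 changed sign and are given no direction. In GNB1L replicate 3 at 4 h also lay above all 8 h libraries, and no direction is given for it. PER1, DUSP1 and BCL2L1 fell in both arms, but with copanlisib the PER1 call (edgeR adjusted p = 0.049) was lost without 4 and the DUSP1 call (0.0499) without 5 of the 6 libraries.

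The difference was negative for ANK2 (-1.19), FAM111B (-0.86), ZFHX4 (-0.75), FANCM (-0.72), RGL1 (-0.69), ETV5 (-0.67), SESN1 (-0.60), FARSB (-0.57), PAICS (-0.51), WDFY1 (-0.43), CDK6 (-0.43), HSPH1 (-0.39), CDC6 (-0.39), DDX21 (-0.38), CANX (-0.38) and LDHA (-0.37). ANK2 fell with copanlisib and rose in DMSO. FAM111B, ETV5, FARSB, PAICS, CDK6, CDC6 and CANX fell with copanlisib and were not called in DMSO, and WDFY1, DDX21 and LDHA fell in both. SESN1 and HSPH1 rose in both arms, the SESN1 call with copanlisib being lost without 5 of the 6 libraries, and ZFHX4, FANCM and RGL1 rose in DMSO and were not called with copanlisib.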

How the results depend on the processing

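The count of 4438 genes called between 4 h and 8 h of copanlisib stayed within 1.5 times in these refits: 3877 with DESeq2, 4554 with limma, 4447 with DESeq2's size factors, 4356 without strand, 6574 with all 18 libraries, 6049 with a GC offset (3766 of them shared with the main call) and 4350 against replicate 3 alone. Without a filter on low counts 4946 were called, 2781 higher and 2165 lower, against 2039 and 2399. An adjusted p under 0.01 left 1766, and a log2 fold change of at least 1 left 183. Leaving out 1 library gave 1768 to 8339. The difference between the arms went from 1746 to 3086 with 18 libraries, 449 with replicate 3, 1115 with a GC offset and 425 to 6330 without 1 library. The DMSO count of 4205 stayed between 3072 and 4810. Called list members (421) ranged from 207 to 691 without 1 library. Of 148 called named genes 31 lost their call without at least 1 library. DUSP2 reversed from 0.12 to -0.32 against replicate 3, and neither value is read as a direction. The cause of these moves was not tested.

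Replicate numbers are shared by the groups but do not pair the libraries. With a replicate block 4019 genes were called (main comparison), 4120 in DMSO, 1774 for the difference and 386 list members; with the block and a GC offset the difference had 1076. The 4 h libraries did not each correlate best with their own number. In the simulated counts, changes of 0.5 (log2) were recovered in part, so a gene that was not called may still have changed.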

Other observations

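CD38, an ectoenzyme of plasma cells and germinal centre cells, was at 10.4, 10.6 and 10.2 CPM at 4 h and 16, 14.3 and 15 at 8 h of copanlisib (log2 fold change 0.54 ± 0.09 (SE), edgeR adjusted p = 0.0024, against replicate 3 0.56), and CD27, a memory B cell receptor, was at 83.6, 93.9 and 106 and then 129, 131 and 131 CPM (0.46 ± 0.08 (SE), edgeR adjusted p = 0.0027, against replicate 3 0.29). SLAMF7, a surface receptor of plasma cells, fell from 233, 223 and 206 to 151, 155 and 157 CPM (-0.52 ± 0.06 (SE), edgeR adjusted p = 0.00042, against replicate 3 -0.42, DMSO -0.35). RGS1, which dampens chemokine receptor signals, fell from 225, 209.6 and 179 to 129, 130.4 and 159 CPM (-0.55 ± 0.10 (SE), edgeR adjusted p = 0.0027, against replicate 3 -0.36, DMSO -0.26). At 12 h RGS1 had 96.1 ± 4.48 CPM with copanlisib and 177 ± 9.13 CPM in DMSO. The chemokine gene XCL1 was at 20.2, 18 and 18.3 and then 13.5, 15.7 and 15 CPM with copanlisib, and at 81.3 ± 2.55 and then 69.5 ± 1.49 CPM in DMSO; its fall (-0.35 ± 0.09 (SE), edgeR adjusted p = 0.017, against replicate 3 -0.30) lost its call without 4 h replicate 1, 8 h replicate 1 or 8 h replicate 3 (up to 0.08), and with a GC offset (-0.18).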
